A study of Mus musculus with 10 samples.

Results

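Interleukin-10 (IL-10) signals through a receptor of 2 different chains to the kinases JAK1 and TYK2 and the transcription factor STAT3, and 10 genes of this route were followed here in mouse hearts and cultured mouse macrophages. They were chosen by name, from the ligand through the receptor chains, kinases and STAT3 to known target genes. Earlier results of these data were known at that choice. All 10 were found among the 55357 genes of the count tables. They are Il10 (the ligand), Il10ra and Il10rb (the receptor chains), Jak1, Tyk2, Stat3, and the targets Socs3, Sbno2, Nfil3 and Etv3. The tests took in 10 of the 10 in macrophages and 9 of the 10 in hearts, where Il10 had too few counts.

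As background, IL-10 is made by macrophages and lymphocytes and limits inflammation. It binds the IL-10RA chain, which carries JAK1, and draws in IL-10RB, which carries TYK2 and is shared with the receptors for IL-22 and the interferon-lambda cytokines. STAT3 is then phosphorylated, enters the nucleus and induces genes that include feedback inhibitors and repressors of inflammatory transcription. In macrophages this route holds down cytokines such as TNF and IL-12.

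Poly(A) RNA was sequenced from 4 groups. The hearts were Cd163-/- males on a C57BL/6 background given recombinant mouse IL-10 (n = 3) or saline (n = 3). CD163 is a scavenger receptor of macrophages. The design text describes narrowing of the transverse aorta at 8 weeks of age and subcutaneous IL-10 at a dose of 50 µg/kg/day, given on chosen days from day 0 to day 27. No label of a single heart names a surgery, no wild-type heart was analysed here, and both heart groups carry the same genotype. The macrophages were Cd163-/- (n = 2) or wild type (n = 2), washed from the peritoneum of mice given thioglycolate, an irritant that draws such cells in, and kept by adherence. All 4 macrophage cultures received 100 nM dexamethasone, a synthetic glucocorticoid, for 48 h, so no culture without the steroid is available for comparison. Whether replicates were separate animals or cultures is not stated, and the p-values therefore reflect the spread among these samples alone, possibly a technical one.

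Library totals were 13.5 to 14.9 M counts (M for mega) in hearts and 16.7 to 18.6 M in macrophages. The unit CPM stands for counts per M counts of a library size scaled by TMM, and means are given ± SD over a group's libraries. A gene was called when its adjusted p in edgeR's quasi-likelihood test was under 0.05. With 1 macrophage library left out, a group held 1 library, and the spread came from the other group's pair alone. A macrophage call gained or lost in such a run therefore rests on the spread of 1 pair. Cd163 had 9 and 14 counts in the Cd163-/- macrophages, against 352 and 205 in wild-type macrophages. In the hearts labelled Cd163-/- it had 37, 43 and 34 counts after IL-10 and 45, 47 and 57 after saline, or 2.39 to 3.65 CPM over the 6 hearts, above the 0.448 and 0.778 CPM of the Cd163-/- macrophages. With no wild-type heart to set beside them, the genotype of the hearts rests on the labels. The 10 macrophage markers summed to 24800 to 26140 CPM in Cd163-/- cultures and 25540 to 31110 CPM in wild-type cultures. Cardiomyocyte markers summed to 27650 to 32730 CPM in IL-10 hearts and 33390 to 40460 CPM in saline hearts. Among them Actc1, named after its values were seen, was at 10210 ± 1674 CPM in IL-10 and 17700 ± 2196 CPM in saline hearts. The other 5 had log2 fold changes of -0.03 to 0.24 and were not called. Of all library pairs within a group, the wild-type macrophages differed most, with a chi-square of 53.0 per gene, against 20.9 for the Cd163-/- pair and 10.7 to 22.1 within the heart groups. In macrophages 1817 genes were called higher and 1846 lower, and that split was 2310 and 1403 with upper-quartile scaling and 2665 and 1220 with scaling by library size alone. Those scalings put the median log2 fold change of all genes at 0.13 and 0.19, against 0.01 with TMM.

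RefSeq promoter windows, 250 bases before and 50 bases after the first transcribed base on GRCm38.p6, were held for 7 of the 10 genes (9 windows). The STAT motif TTCNNNGAA, which reads the same on both strands, was in 3 of these 9 windows, against 2726 of 32851 windows (8.30%) in the whole table. The 3 windows belong to Socs3 and Sbno2, and their 250 upstream bases are shown because both genes differed between the macrophage groups described below. Another Sbno2 window held no motif. The window of Tyk2, which was also called lower in macrophages, held none, nor did those of Jak1, Stat3, Nfil3 and Etv3. Capitals mark the motif, which begins 154 bases before the first transcribed base of Socs3 (chr11:117969367-117969616, minus strand), and 26 and 24 bases before those of Sbno2 windows A and B (chr10:80102703-80102952 and chr10:80101188-80101437, both minus strand). These starts are those of RefSeq, and all 3 windows lie inside the longer GENCODE spans given below for Socs3 and Sbno2. A match to these letters is a description of sequence and not a measured binding site.
Socs3: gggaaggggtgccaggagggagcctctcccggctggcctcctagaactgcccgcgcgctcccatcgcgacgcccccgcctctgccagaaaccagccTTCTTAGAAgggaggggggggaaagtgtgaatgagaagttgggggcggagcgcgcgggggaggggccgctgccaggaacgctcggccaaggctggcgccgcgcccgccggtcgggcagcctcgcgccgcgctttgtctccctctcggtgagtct
Sbno2 window A: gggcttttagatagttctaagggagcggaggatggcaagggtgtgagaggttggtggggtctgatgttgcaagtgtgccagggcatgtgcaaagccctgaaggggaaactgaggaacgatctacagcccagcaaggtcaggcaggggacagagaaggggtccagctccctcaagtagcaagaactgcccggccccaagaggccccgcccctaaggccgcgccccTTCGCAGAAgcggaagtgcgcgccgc
Sbno2 window B: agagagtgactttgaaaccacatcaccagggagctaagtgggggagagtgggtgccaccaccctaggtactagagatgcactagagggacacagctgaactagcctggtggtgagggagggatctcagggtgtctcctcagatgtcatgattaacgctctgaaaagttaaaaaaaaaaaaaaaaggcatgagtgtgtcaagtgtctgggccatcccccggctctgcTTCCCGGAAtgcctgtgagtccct

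The macrophage comparison asked which of these genes differed when CD163 was missing. The ligand gene Il10 and the target gene Socs3 were 24.1-fold and 24.9-fold lower in Cd163-/- than in wild-type macrophages. Il10ra, Il10rb, Jak1 and Stat3 were not called. Tyk2 and Sbno2 were lower by a smaller margin. In all, 4 of the 10 genes were called lower and 0 higher, or 40.0% of them, against 26.4% of the 13861 genes tested in this comparison, where 13.3% were called lower and 13.1% higher. The groups did not overlap for 6 of the 10 genes, or 60.0%, while this was so for 69.4% of all genes tested. Before adjustment 5 of the 10 had a p under 0.05, all of them lower, against 41.2% of all genes, and the DESeq2 Wald test and limma-voom also called 0 higher. Their median log2 fold change was -0.50, against 0.01 for all genes.

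**Figure D1:**
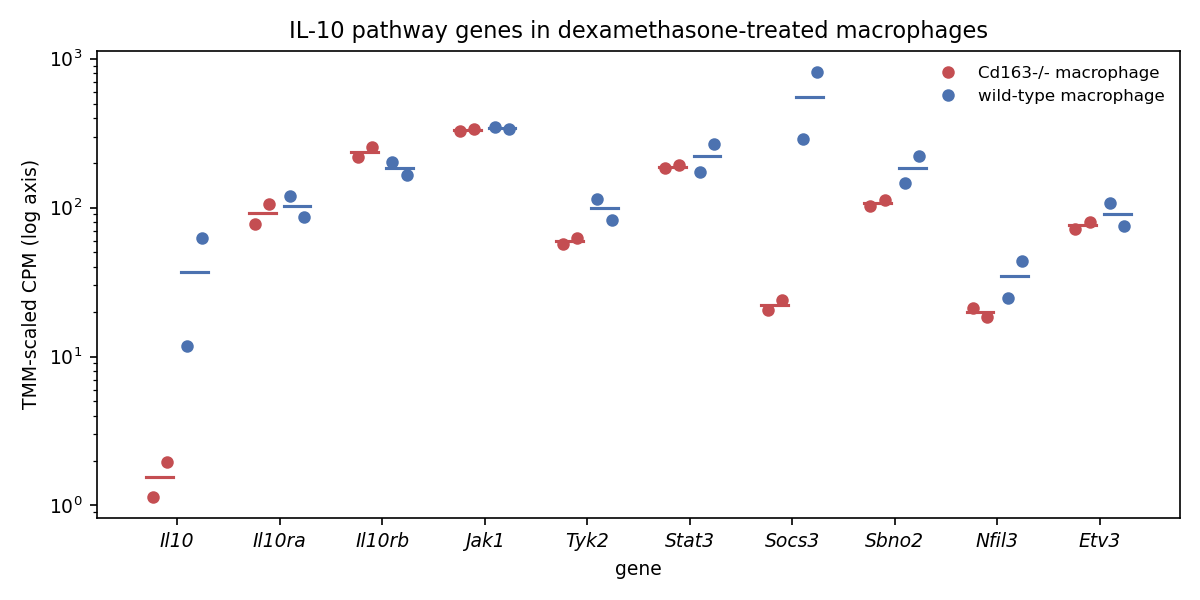
Level of each of the 10 genes in the 4 macrophage libraries, in CPM on a log axis, with Cd163-/- libraries left of wild-type libraries. Each point is 1 library and the bars are group means; Il10 (1.15 and 1.95 CPM in Cd163-/-, 11.8 and 62.5 CPM in wild-type libraries) and Socs3 (20.7 and 23.8 CPM in Cd163-/-, 290.2 and 814.3 CPM in wild-type libraries) stand apart.

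Il10 (chromosome 1, 131019845 to 131024974, plus strand, GRCm38) encodes the ligand. It had 23 and 35 counts in the Cd163-/- macrophages, against 198 and 984 counts in the wild-type macrophages, which is 1.15 and 1.95 CPM against 11.8 and 62.5 CPM. Both Cd163-/- libraries were below both wild-type libraries, and the wild-type libraries differed 5.32-fold from each other. The means were 1.55 ± 0.565 CPM in Cd163-/- and 37.2 ± 35.9 CPM in wild-type macrophages (n = 2 each). This was a 24.1-fold lower level, a log2 fold change of -4.59 with a 95% interval of -6.73 to -2.45 (edgeR quasi-likelihood test, adjusted p = 0.0155). The size rested on wild-type replicate 2, since it was -2.94 without that library and -5.35 without wild-type replicate 1. The call was lost without Cd163-/- replicate 1 (edgeR adjusted p = 0.129), without Cd163-/- replicate 2 (adjusted p = 0.0875) and with limma-voom (adjusted p = 0.0804).

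The 2 receptor chains were not called. Il10ra (chromosome 9, 45253837 to 45269149, minus strand), the ligand-binding chain, was at 77.1 and 106.0 CPM in Cd163-/- macrophages, against 119.0 and 85.9 CPM in wild-type macrophages. The groups overlapped, and the log2 fold change of -0.16 had an interval of -0.70 to 0.37 (edgeR quasi-likelihood test, adjusted p = 0.615). Il10rb (chromosome 16, 91406164 to 91425834, plus strand), the shared accessory chain, was at 217.9 and 255.7 CPM in Cd163-/- macrophages, against 202.5 and 164.4 CPM in wild-type macrophages. Here both Cd163-/- libraries were the higher ones. Its log2 fold change of 0.37 had an interval of -0.03 to 0.76 and missed the threshold (edgeR adjusted p = 0.141). It passed with scaling by library size alone (edgeR adjusted p = 0.0486). With 1 library left out the log2 fold change ran from 0.22 to 0.52.

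Of the 2 kinase genes, Tyk2 was called and Jak1 was not. Tyk2 (chromosome 9, 21104068 to 21131243, minus strand) was at 56.6 and 62.2 CPM in Cd163-/- macrophages, against 115.1 and 83.0 CPM in wild-type macrophages. The groups did not overlap, and the level was 1.67-fold lower (log2 -0.74, SE 0.18, edgeR quasi-likelihood adjusted p = 0.0306). The call was lost without either Cd163-/- library (edgeR adjusted p = 0.185 and 0.115), with upper-quartile scaling (adjusted p = 0.0523) and with scaling by library size alone (adjusted p = 0.061), and the change was -0.49 without wild-type replicate 1. Jak1 (chromosome 4, 101152367 to 101265282, minus strand) was at 325.3 and 337.3 CPM in Cd163-/- macrophages, against 345.4 and 336.1 CPM in wild-type macrophages. These 4 values overlapped and lay close together, with a log2 fold change of -0.04 and an interval of -0.35 to 0.27.

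Stat3 (chromosome 11, 100885098 to 100939540, minus strand), the transcription factor of the route, was at 183.2 and 194.2 CPM in Cd163-/- macrophages, against 174.7 and 268.3 CPM in wild-type macrophages. Both Cd163-/- values lay between the 2 wild-type values. The log2 fold change was -0.23 with an interval of -0.76 to 0.29 (edgeR quasi-likelihood test, adjusted p = 0.46). It was -0.51 without wild-type replicate 1 and 0.11 without wild-type replicate 2. RNA levels of a STAT gene do not measure its phosphorylation.

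Among the targets, Socs3 (chromosome 11, 117966079 to 117970047, minus strand) differed by about as much as Il10. SOCS3 binds some activated cytokine receptors and JAK kinases and limits the signal of those receptors. Whether it limited IL-10 signalling was not tested. Socs3 had 415 and 428 counts in Cd163-/- macrophages, against 4884 and 12813 counts in wild-type macrophages. In CPM these were 20.7 and 23.8 against 290.2 and 814.3. All the wild-type values were above the Cd163-/- values, and the wild-type libraries differed 2.81-fold from each other. The level was 22.2 ± 2.19 CPM in Cd163-/- and 552.3 ± 370.6 CPM in wild-type macrophages (n = 2 each), 24.9-fold lower, with a log2 fold change of -4.63 and an interval of -5.91 to -3.36 (edgeR quasi-likelihood test, adjusted p = 0.00349). Ranked by fold change, it was number 95 from the largest decrease among the 13861 genes tested, and Il10 was number 97. The change was -3.71 without wild-type replicate 2 and -5.20 without wild-type replicate 1, and the call was lost without Cd163-/- replicate 1 (edgeR adjusted p = 0.0556).

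Sbno2 (chromosome 10, 80056992 to 80105571, minus strand) encodes a co-repressor that IL-10 induces in macrophages. It was at 102.2 and 112.7 CPM in Cd163-/- macrophages, against 147.4 and 222.8 CPM in wild-type macrophages. The groups did not overlap, and the level was 1.72-fold lower (log2 -0.78, SE 0.21, edgeR quasi-likelihood adjusted p = 0.0412). The call was lost without either Cd163-/- library (edgeR adjusted p = 0.221 and 0.141), without wild-type replicate 2 (log2 -0.46, adjusted p = 0.059), with upper-quartile scaling (adjusted p = 0.0617) and with library size alone (adjusted p = 0.0782).

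Nfil3 (chromosome 13, 52967209 to 52981073, minus strand), a basic leucine zipper repressor, was at 21.2 and 18.5 CPM in Cd163-/- macrophages, against 24.9 and 44.1 CPM in wild-type macrophages. The groups did not overlap, but the log2 fold change of -0.80 was not called (SE 0.28, edgeR quasi-likelihood adjusted p = 0.0804). It was -1.15 without wild-type replicate 1 and -0.33 without wild-type replicate 2. The DESeq2 Wald test called Nfil3 on all 4 libraries (log2 -0.81, adjusted p = 0.0429). Etv3 (chromosome 3, 87525407 to 87540156, plus strand), an ETS-family repressor, was at 71.7 and 80.1 CPM in Cd163-/- macrophages, against 107.9 and 74.7 CPM in wild-type macrophages. Its groups overlapped (log2 -0.27, edgeR adjusted p = 0.343), and without wild-type replicate 2 its log2 fold change was -0.51. Between the wild-type libraries, replicate 2 was the higher for Il10, Socs3, Sbno2, Nfil3 and Stat3, and replicate 1 was the higher for the other 5 genes.

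**Figure D2:**
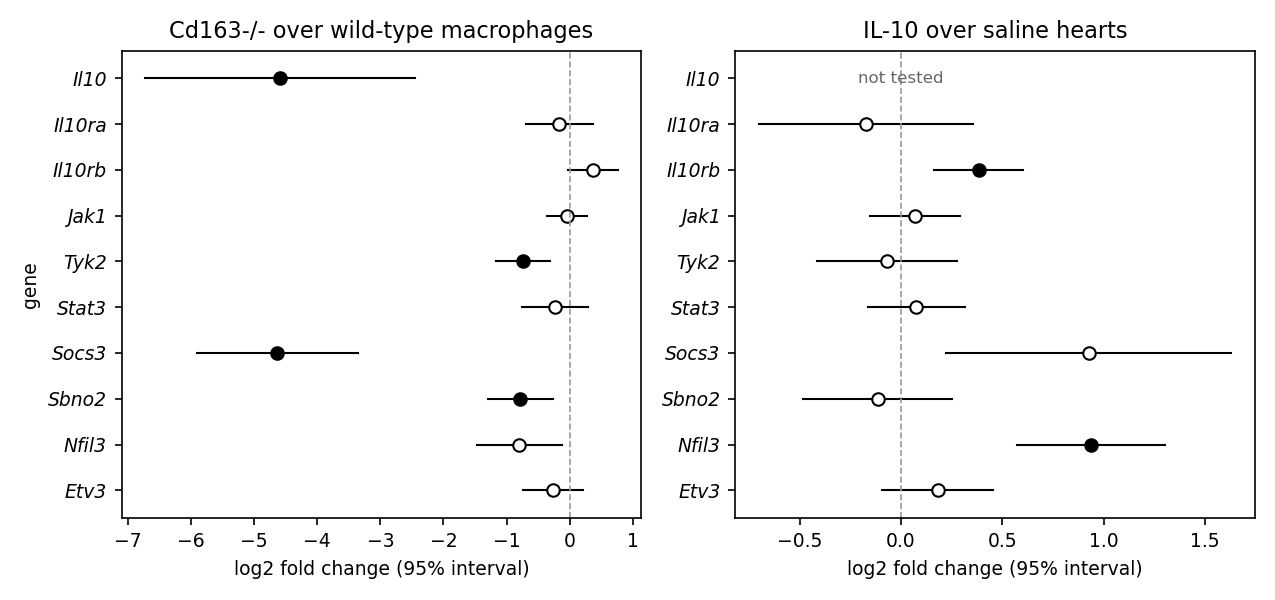
Log2 fold change of each of the 10 genes, Cd163-/- over wild-type macrophages on the left and IL-10 over saline hearts on the right, on axes of different length. Points are estimates with 95% intervals, filled where the gene was called; Socs3 and Il10 lie at -4.63 and -4.59 in macrophages, and Nfil3 and Il10rb are the 2 filled points in hearts.

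The surrounding pathway was described with 4 gene lists that do not hold the 10 genes. Beside each macrophage count stands the share of all genes tested, 13.3% called lower and 13.1% called higher. The lists were chosen with earlier results of these data known, so a count above that share is a description only. Of 18 genes known to be repressed by IL-10 in activated macrophages, 14 were called lower in Cd163-/- macrophages and 0 higher. Their median log2 fold change was -6.22, or -5.30 with 2 genes that had no counts in Cd163-/- cells set at their bounds. The list summed to 185.5 and 268.3 CPM in Cd163-/- macrophages, against 7030 and 10190 CPM in wild-type macrophages. Il10 and these genes were thus low in the same libraries, and leaving out single libraries gave 12 to 16 lower calls.

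Ccl2, a chemokine that attracts monocytes, was at 35.9 ± 0.171 CPM in Cd163-/- and 423 ± 2.44 CPM in wild-type macrophages, a log2 fold change of -3.56 (edgeR quasi-likelihood test, adjusted p = 0.000397). Tnf, the cytokine tumour necrosis factor, was at 10.9 ± 2.95 CPM in Cd163-/- and 2163 ± 409 CPM in wild-type macrophages (log2 -7.64). Il12b, a subunit of IL-12 and IL-23, was at 0.377 ± 0.252 CPM in Cd163-/- and 406.4 ± 166 CPM in wild-type macrophages (log2 -10.08). These transcripts were abundant in both wild-type libraries and low in both Cd163-/- libraries. Ccl4, another chemokine, was at 23.4 ± 2.95 CPM in Cd163-/- and 497 ± 115 CPM in wild-type macrophages (log2 -4.41). Il12a, the other subunit of IL-12, had no counts in Cd163-/- macrophages and 97 in wild-type macrophages, at least 38.0-fold lower against a floor of 3 counts over the group. The 4 genes of this list that were not called, named after their values were seen, were Cd80, Cd86, Cxcl9 and Nos2. Nos2 had no counts in Cd163-/- macrophages, and 1680 of its 1701 wild-type counts came from wild-type replicate 2.

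Of 31 other genes known to respond to IL-10 or STAT3, 29 were tested, 15 were called lower, Cd163 itself among them, and 5 were called higher, with a median log2 fold change of -0.70. The lower ones with the smallest p were Fpr2, a formyl peptide receptor (8.05 ± 1.09 CPM in Cd163-/- and 370.9 ± 98.3 CPM in wild-type macrophages, log2 -5.52), the lipopolysaccharide co-receptor Cd14 (log2 -3.33), the scavenger receptor Marco (log2 -5.27) and Tnip3, which restrains NF-kappaB (log2 -5.47). Among the higher ones were Il21r, the IL-21 receptor (25.3 ± 2.25 CPM in Cd163-/- and 2.64 ± 0.222 CPM in wild-type macrophages, log2 3.26), Arg1, which encodes arginase (log2 1.09), and the transcription factor Klf4 (log2 1.88). The list thus held large differences in both directions. Without Cd163-/- replicate 1 the higher calls numbered 3.

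Of 23 further JAK, STAT and inhibitor genes, 4 were called higher and 7 lower, with a median log2 fold change of -0.18. Of all genes tested 13.1% were called higher and 13.3% lower. The kinase gene Jak2 was at 55.3 ± 4.08 CPM in Cd163-/- and 245.2 ± 92.6 CPM in wild-type macrophages (log2 -2.15, edgeR quasi-likelihood adjusted p = 0.00463). The phosphatase genes Ptpn6 (log2 -0.96), Ptpn2 (-0.85) and Ptpn1 (-0.96), whose products take phosphate off JAKs or STATs, were also lower. Other members of the SOCS family differed in sign. Socs6 (log2 1.51), Socs2 (1.41) and Socs5 (0.71) were called higher, as was Pias3 (0.58), an inhibitor of STAT3. Socs1, named after its values were seen, was lower at 0.313 ± 0.0502 CPM in Cd163-/- and 5.80 ± 6.36 CPM in wild-type macrophages (log2 -4.17, edgeR adjusted p = 0.0373). The lower calls of this list numbered 0 without Cd163-/- replicate 1 and 1 without Cd163-/- replicate 2, and the higher calls 1 without Cd163-/- replicate 1.

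Of 11 other IL-10 family ligands and receptors, 3 were tested and 7 had no count in any macrophage library. Il22ra1, an IL-22 receptor chain, was called higher at 3.30 ± 0.192 CPM in Cd163-/- and 1.01 ± 0.256 CPM in wild-type macrophages (log2 1.70, edgeR quasi-likelihood adjusted p = 0.0162), a call that was lost without either Cd163-/- library. Il20rb was called lower at 2.60 ± 0.72 CPM in Cd163-/- and 5.27 ± 0.53 CPM in wild-type macrophages (log2 -1.02, adjusted p = 0.0482), and no leave-one-out run called it.

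**Figure D3:**
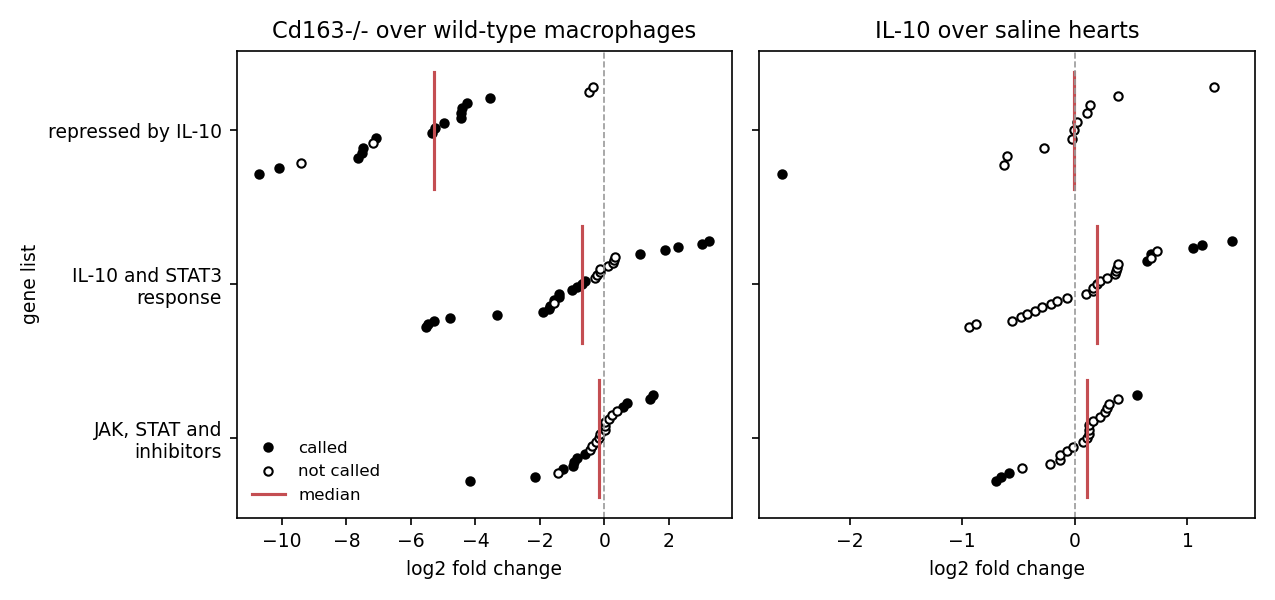
Log2 fold changes of the tested genes of 3 pathway lists, Cd163-/- over wild-type macrophages on the left and IL-10 over saline hearts on the right, on axes of different length. Each point is 1 gene, filled where called, the red line is the median of the points, and Il12a and Nos2 stand at their bounds; the repressed list has its median at -5.30 in macrophages and -0.01 in hearts.

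Markers of other cells also differed between the macrophage groups, and their part in these results was not tested. The 5 mesothelial markers summed to 291.9 and 369.0 CPM in Cd163-/- macrophages and 93.7 and 143.1 CPM in wild-type macrophages, with 4 called higher. The 6 fibroblast markers summed to 2959 and 3395 CPM in Cd163-/- and 1429 and 2184 CPM in wild-type macrophages, with 3 called higher and 1 lower. They did not move together, and 3 are named after their values were seen. Col1a1 (log2 1.50) and Col1a2 (1.14) were called higher. Pdgfra was called lower, at 116.9 ± 7.63 CPM in Cd163-/- and 291.3 ± 91.6 CPM in wild-type macrophages (log2 -1.32). Neutrophil markers summed to 49.6 and 98.1 CPM in Cd163-/- and 165.7 and 328.6 CPM in wild-type macrophages, with S100a8 and Csf3r called lower, while S100a9, Cxcr2, Retnlg and Ly6g had 0 or 1 count in each library. The 6 genes induced by glucocorticoids summed to 1124 and 1188 CPM in Cd163-/- and 776.2 and 912.6 CPM in wild-type macrophages, with 4 called higher. Macrophage markers did not move together: C1qa and C1qc were called higher and Adgre1, which encodes F4/80, was called lower (log2 -0.80). Immediate early genes summed to 434.2 to 461.3 CPM in Cd163-/- and 618.5 to 694.0 CPM in wild-type macrophages, with 1 called higher and 3 lower, and Junb stands in both that list and the response list. Smooth muscle markers summed to 26.3 and 34.2 CPM in Cd163-/- and 16.0 and 17.8 CPM in wild-type macrophages, with 2 called higher. Cardiomyocyte markers summed to 26.5 to 41.7 CPM in Cd163-/- and 33.0 to 49.9 CPM in wild-type macrophages, with none called. Endothelial markers summed to at most 6.45 CPM, T and NK cell markers to at most 2.92 CPM and B cell markers to at most 1.21 CPM in any macrophage library. In bulk RNA, fewer cells of a type and less RNA per cell cannot be told apart.

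The heart comparison asked what injected IL-10 changed in the same genes. Nfil3 and Il10rb were called higher in IL-10 than in saline hearts, and 0 of the 9 genes tested were called lower. Among all 13718 genes tested in hearts 13.6% were called, 6.86% higher and 6.7% lower, against 22.2% of the 9. The groups did not overlap for 2 of the 9, against 31.6% of all genes tested, and the median log2 fold change of the 9 was 0.08. Before adjustment 3 of the 9 had a p under 0.05, all of them higher, against 28.3% of all genes, and the DESeq2 Wald test and limma-voom also called 0 lower.

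**Figure D4:**
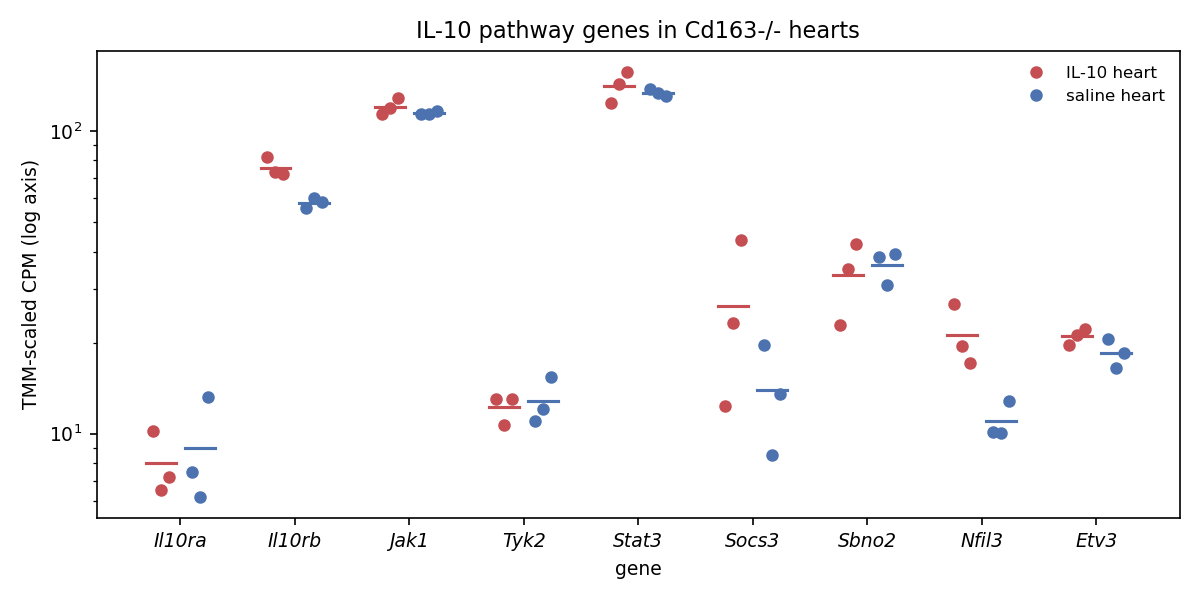
Level of each of the 9 genes tested in the 6 hearts, in CPM on a log axis, with IL-10 hearts left of saline hearts. Each point is 1 library and the bars are group means; the groups separate for Nfil3 (17.1 to 26.8 CPM in IL-10 and 10.1 to 12.8 CPM in saline hearts) and Il10rb, and overlap for Socs3.

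Nfil3 was at 26.8, 19.5 and 17.1 CPM in IL-10 hearts, against 10.2, 10.1 and 12.8 CPM in saline hearts. All 3 IL-10 hearts were above all 3 saline hearts. The means were 21.1 ± 5.05 CPM after IL-10 and 11.02 ± 1.56 CPM after saline (n = 3 each), a log2 fold change of 0.94 with an interval of 0.57 to 1.30 (edgeR quasi-likelihood test, adjusted p = 0.002). The call held in each of the 6 runs with 1 heart left out, with log2 fold changes of 0.74 to 1.08. In macrophages the same gene had been at 19.8 ± 1.97 CPM in Cd163-/- and 34.5 ± 13.6 CPM in wild-type cultures.

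Il10rb was at 81.9, 73.2 and 72.3 CPM in IL-10 hearts, against 55.9, 60.1 and 58.4 CPM in saline hearts. Again every IL-10 heart was above every saline heart, by a smaller margin. The log2 fold change was 0.38 with an interval of 0.16 to 0.60 (edgeR quasi-likelihood test, adjusted p = 0.0223). The call was lost with scaling by library size alone (edgeR adjusted p = 0.0855) and in 4 of the 6 runs with 1 heart left out, without IL-10 replicate 1 (adjusted p = 0.0902) or 2 (0.0615) or saline replicate 1 (0.106) or 3 (0.0585).

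Socs3 was at 12.4, 23.3 and 43.7 CPM in IL-10 hearts, against 19.7, 8.53 and 13.5 CPM in saline hearts. The groups overlapped, and IL-10 replicate 1 was below saline replicates 1 and 3. Its interval of 0.22 to 1.63 lay above 0 before adjustment, and its log2 fold change of 0.93 was not called (SE 0.33). It was 0.37 without IL-10 replicate 3 and 1.28 without IL-10 replicate 1, where it was called, as it was at 1.26 without saline replicate 1.

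The ligand and the other genes were not called in hearts. Il10 had 2, 0 and 0 counts in IL-10 hearts, against 0, 2 and 1 counts in saline hearts, all below the floor of 3 counts, which is 0.192 to 0.22 CPM. A difference in its transcript was therefore not detectable at this depth, and the injected protein is not measured by sequencing RNA. Il10ra was at 10.2, 6.54 and 7.17 CPM in IL-10 hearts, against 7.47, 6.20 and 13.2 CPM in saline hearts. Its groups overlapped widely.

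Tyk2 was at 13.0, 10.7 and 13.0 CPM in IL-10 hearts, against 10.98, 12.0 and 15.4 CPM in saline hearts. Jak1 was at 113.8, 119.0 and 128.9 CPM in IL-10 hearts, against 114.3, 114.2 and 116.5 CPM in saline hearts. Stat3 was at 124.3, 142.7 and 156.9 CPM in IL-10 hearts, against 137.7, 133.9 and 130.7 CPM in saline hearts. These 3 genes overlapped between the groups, with log2 fold changes of -0.07 for Tyk2 (interval -0.41 to 0.27), 0.07 for Jak1 (-0.15 to 0.29) and 0.08 for Stat3 (-0.16 to 0.31). Sbno2 was at 22.9, 35.0 and 42.5 CPM in IL-10 hearts, against 38.4, 31.0 and 39.3 CPM in saline hearts (log2 -0.12). Etv3 was at 19.6, 21.2 and 22.2 CPM in IL-10 hearts, against 20.6, 16.5 and 18.5 CPM in saline hearts (log2 0.18). For both, edgeR's quasi-likelihood test gave no call (adjusted p = 0.713 and 0.391), and the groups overlapped.

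Il10ra was also set against macrophage transcripts, since the receptor chain is made mainly by cells of the haematopoietic lineage, macrophages among them. Per 1000 counts of the 10 macrophage markers it had 10.9, 6.84 and 6.92 counts in IL-10 hearts, against 8.17, 9.23 and 11.6 counts in saline hearts. The groups overlapped, with means of 8.21 ± 2.31 in IL-10 hearts and 9.67 ± 1.76 in saline hearts (n = 3 each) and a difference of -1.46 (exact permutation test, two-sided, p = 0.5, where 3 against 3 cannot go below 0.10). The same ratio was 3.11 and 4.06 in Cd163-/- macrophages, against 3.83 and 3.36 in wild-type macrophages. The marker Lyz2, named after its values were seen, weighed more in cultures, so the ratio does not compare hearts with cultures. It was at 16930 ± 145.7 CPM in Cd163-/- and 21030 ± 2897 CPM in wild-type macrophages. In hearts Lyz2 was at 429.4 ± 12.15 CPM after IL-10 and 380.8 ± 105.5 CPM after saline. The macrophage markers themselves summed to 940.0 to 1037 CPM in IL-10 hearts and 671.1 to 1138 CPM in saline hearts, with 1 of 10, Cd68, called lower.

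The same pathway lists were counted in hearts, where 6.86% of all genes tested were called higher and 6.7% lower. Of 31 other IL-10 and STAT3 response genes 27 were tested, 5 were called higher and 0 lower, with a median log2 fold change of 0.20. The lower calls of that list numbered 1 without IL-10 replicate 3 and 2 without saline replicate 2. Cebpb was at 37.9 ± 3.66 CPM in IL-10 and 17.3 ± 1.15 CPM in saline hearts (log2 1.13, edgeR quasi-likelihood adjusted p = 3.61e-05), and the related transcription factor Cebpd was at 59.6 ± 8.76 CPM in IL-10 and 28.7 ± 6.81 CPM in saline hearts (log2 1.05). Klf4 (log2 0.68), Ddit4, a stress-induced inhibitor of mTOR signalling (1.40), and the phosphatase gene Dusp1 (0.64) were the others called higher. Of 23 JAK, STAT and inhibitor genes 21 were tested, with Stat5b called higher (46.97 ± 4.96 CPM in IL-10 and 31.95 ± 1.39 CPM in saline hearts, log2 0.56). The lower calls numbered 3, with Jak3 (log2 -0.70) and Stat2 (-0.66) among them, and 1 without IL-10 replicate 2. Of 18 genes repressed by IL-10, 11 were tested and 1 was called lower, Cxcl10 (log2 -2.60), with a median of -0.01. In that list 2 were called lower without IL-10 replicate 3 or with upper-quartile scaling, and 1 was called higher without IL-10 replicate 1. Of 11 other IL-10 family genes 2 were tested and neither was called, Il20rb (log2 -0.93) and Ifnlr1 (-0.37).

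Beside these heart results, the 6 glucocorticoid-induced genes summed to 352.6 to 383.7 CPM in IL-10 hearts and 222.1 to 229.1 CPM in saline hearts, with Tsc22d3 and Klf9 called higher, and their part in the heart results was not tested. Immediate early genes summed to 158.1 to 202.8 CPM in IL-10 and 124.1 to 237.0 CPM in saline hearts, with Atf3 called higher and Ier3 lower. Endothelial markers summed to 444.8 to 536.1 CPM in IL-10 and 520.1 to 640.2 CPM in saline hearts, with 2 called lower. Fibroblast markers summed to 1758 to 2042 CPM in IL-10 and 1778 to 1936 CPM in saline hearts, with 1 called higher and 2 lower. Cardiomyocyte markers, summed above, had 1 of 6, Actc1, called lower (log2 -0.79). Mesothelial markers summed to 5.87 to 8.16 CPM in IL-10 and 5.64 to 15.4 CPM in saline hearts, with none called. Smooth muscle markers summed to 54.5 to 71.3 CPM in IL-10 and 60.3 to 87.4 CPM in saline hearts, with none called. Neutrophil markers summed to 5.66 to 10.7 CPM in IL-10 and 6.41 to 8.34 CPM in saline hearts, with none called, and T and NK cell and B cell markers to at most 3.18 CPM in any heart.

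Levels of different genes were ordered as TPM, which divides by the length of the joined exons. In Cd163-/- macrophages the order began with Il10rb (215.7 ± 20.9 TPM), Jak1 (159.1 ± 1.5), Il10ra (90.7 ± 18.8) and Stat3 (68.7 ± 1.72). Sbno2, Nfil3 and Tyk2 followed at 34.8, 34.0 and 30.0 TPM, then Socs3 at 26.7 ± 2.202 and Etv3 at 25.6 ± 1.59, with Il10 last at 4.08 ± 1.43 TPM. The ranges of the 2 libraries overlapped between Sbno2 and Nfil3 and between Socs3 and Etv3. In wild-type macrophages Socs3 came first at 298.7 and 850.1 TPM, before Il10rb (144.3 ± 19.7), Jak1 (141.3 ± 1.28), Il10ra (87.7 ± 19.2), Il10 (26.7 and 144.1 TPM), Stat3 (69.8 ± 21.5), Sbno2 (51.9 ± 15.4), Nfil3 (51.1 ± 20.6), Tyk2 (43.2 ± 9.47) and Etv3 (26.6 ± 6.58). The library ranges of neighbours in that order overlapped, except between Socs3 and Il10rb, Jak1 and Il10ra, and Tyk2 and Etv3.

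In IL-10 hearts Il10rb (37.1 ± 5.89 TPM), Jak1 (30.9 ± 2.84) and Stat3 (27.4 ± 2.78) led, before Nfil3 (19.6 ± 6.32), Socs3 (16.8 ± 10.1) and Sbno2 (5.74 ± 1.53), with Il10ra, Etv3 and Tyk2 at 3.32 to 4.30 TPM and Il10 last. Neighbours overlapped, except Socs3 and Sbno2, and Tyk2 and Il10. In saline hearts Jak1 (31.4 ± 1.62 TPM), Il10rb (30.1 ± 1.81) and Stat3 (27.8 ± 0.511) led, before Nfil3 (10.8 ± 1.97), Socs3 (9.48 ± 3.67) and Sbno2 (6.68 ± 0.988), with Il10ra, Tyk2 and Etv3 at 3.55 to 5.10 TPM and Il10 last. There the neighbours that did not overlap were Stat3 and Nfil3, and Etv3 and Il10. In each of the 4 groups the TPM of Il10rb was above that of Il10ra with no overlap. Tissue, culture and dexamethasone differ together between hearts and macrophages, so the levels stand side by side with no test. Mitochondrial genes also held 33.7 to 39.4% of the counts in heart libraries and 2.43 to 3.12% in macrophage libraries. Those counts were kept in the totals behind CPM and TPM, which lowers the heart levels of other genes relative to macrophages.

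The genes whose level followed Socs3 most closely over the 6 hearts, by the root mean square difference of centred log2 CPM, were Ccl6 (0.27), Txnip (0.29), Il33 (0.29) and Prg4 (0.34), where the median gene of 9914 was at 0.75. For Il10ra they were Atp13a2 (0.12), Egr1 (0.13), Pdlim2 (0.13) and Frmd8 (0.13), with a median of 0.41. These distances describe 6 libraries and carry no test.

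Some of the 10 genes overlap others, and reads from a kit that does not mark the strand cannot be told apart there. Jak1 shares exonic bases with Raver2, which had 52 to 60 counts in IL-10 hearts and 53 to 62 in saline hearts, and 15 to 27 in Cd163-/- macrophages and 1 to 23 in wild-type macrophages. Stat3 shares exonic bases with Stat5a, which had 124 to 173 counts in IL-10 hearts and 99 to 172 in saline hearts, and 314 to 348 in Cd163-/- macrophages and 420 to 445 in wild-type macrophages. Gm21970, which overlaps Il10rb, and 1700084C06Rik, which overlaps Tyk2, had no counts in any library. That absence does not show how reads on the shared exonic bases were handled, or that Il10rb and Tyk2 lost none.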

How the data were processed

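Raw gene counts, not normalized, were deposited by the authors as 1 table of 6 hearts and 1 of 4 macrophage libraries. HISAT2 (version 2.2.1) served for alignment, per the submitters' processing notes, and featureCounts for counting, whose version is not given in the sources used here. Per the labels' protocols, libraries were made with the NEBNext Ultra RNA kit, which does not mark the strand, and the text names livers as the RNA source although the samples are hearts and macrophages. The labels list GRCm39 and mm10, so the build behind the counts is not settled. Coordinates are those of GENCODE M21 on GRCm38 and promoter sequences those of RefSeq on GRCm38.p6.

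The 2 tables were fitted separately in R 4.3.3 with edgeR 4.0.16. After filterByExpr (minimum count 10, minimum total 15) and TMM scaling, the quasi-likelihood test compared IL-10 over saline hearts and Cd163-/- over wild-type macrophages, with Benjamini-Hochberg adjustment over every gene tested in a table. Standard errors are the absolute log2 fold change over the square root of F, and intervals are 95%. CPM use scaled library sizes, and TPM use the union of exons.

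The genes followed here and all lists were chosen with earlier results of these data known. Genes named are all 10 of the route, up to 4 called genes per direction and list with the smallest p (the 2 smallest where none was called), up to 2 members or the count of each marker list, the 4 genes most like Socs3 and Il10ra in hearts (mean of at least 5 CPM, pseudocount 0.5), and Cd163. Dusp1 in hearts, 1 of the macrophage markers C1qa, C1qc and Adgre1, 4 of the neutrophil markers and Il12a were added after their values were seen. So were the genes said to be so. Some genes that this rule names are not reported here. The docking motif planned for the receptor proteins was not analysed here. Alternatives were other scalings, filters, DESeq2 (1.42.0), limma-voom (limma 3.58.1), the replicate number as a block, mitochondrial genes left out and each library left out. A macrophage group left with 1 library took its spread from the other pair. The fits were tested on simulated counts with 200 changed genes.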

Additional observations from a re-analysis of the deposited data

How the results depend on the processing

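Of the member results, 123 alternatives in hearts and 111 in macrophages kept direction and side of the threshold, 4 and 7 reversed, 3 and 8 gained a call and 5 and 14 lost one. Reversed log2 fold changes, none called, were those of Jak1 in macrophages with upper-quartile scaling (0.0725) and library size alone (0.135) and of Il10ra there with library size alone (0.0104). With 1 heart left out, Il10ra ran from -0.38 to 0.23, Tyk2 from -0.17 to 0.0939 and Sbno2 from -0.31 to 0.11. Il10ra was above 0 only without saline replicate 3, Tyk2 without that heart or IL-10 replicate 2, and Sbno2 without IL-10 replicate 1. With 1 macrophage library left out, Il10ra ran from -0.42 to 0.0902, Stat3 from -0.51 to 0.11 and Etv3 from -0.51 to 0.022. They were above 0 without Cd163-/- replicate 1 or wild-type replicate 1 for Il10ra, without wild-type replicate 2 for Stat3 and without wild-type replicate 1 for Etv3.

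Called genes numbered 941 higher and 919 lower in hearts. The higher calls were 549 with library size alone, where 1 of the members stayed called higher in place of 2. Leaving out 1 heart gave 450 to 1082 higher and 447 to 1012 lower calls, with 1 to 2 members higher. In macrophages the lower calls were 1220 with library size alone, where 1 member was called higher and 2 lower, and 2 were lower with upper-quartile scaling. Leaving out 1 macrophage library gave 360 to 1838 higher and 374 to 1973 lower calls, with 0 to 1 members higher and 0 to 6 lower. The lowest of these counts came without Cd163-/- replicate 1. The cause of these changes was not tested. Without a count filter, Socs3 in hearts and Nfil3 in macrophages were also called. The difference in Il10ra per 1000 marker counts ran from -2.79 to -0.49 with 1 heart left out and was -1.90 without Lyz2.

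Deviations of same-numbered libraries from their group means correlated at -0.18, 0.04 and 0.00 in hearts and -0.11 in macrophages. Deviations within a group cancel out, and in macrophages every pair of libraries gives the same value apart from its sign. These values therefore cannot decide whether replicate numbers paired the samples. With the number as a replicate block, 772 genes were called higher and 751 lower in hearts, and 1308 and 1348 in macrophages, where Tyk2 (adjusted p = 0.0557) lost its call. The crossed pairing, added after the data were seen, gave 2395 and 2200, with 5 members called lower. Il10 in hearts, at 0 to 2 counts, was limited by depth.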
